A study of Vulpes vulpes with 48 samples.

Results

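The genes ENSCAFG00000001254, ENSCAFG00000028566 and ENSCAFG00000006100 were followed in brain RNA of silver foxes (Vulpes vulpes) bred for tame or for aggressive behaviour. They are 3 of the 13202 dog Ensembl gene identifiers in the deposited count tables. All 3 were listed by identifier because their counts were higher in tame than in aggressive prefrontal cortex and averaged 50 CPM or more there (CPM, counts per 1000000 counts of a library, with libraries scaled by TMM, the trimmed mean of M-values). A total of 10 genes met both conditions when "higher" meant passing edgeR's quasi-likelihood test at an adjusted p under 0.05, and the 3 are among these 10. The cortex line difference therefore chose them, and it is given below as a description. All 3 identifiers were in both tables and passed the filter on low counts in both regions.

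The foxes were male and 1.5 years old, and the same age, sex and brain side applied to every group. The groups were tame right prefrontal cortex (12 libraries), aggressive right prefrontal cortex (12), tame right basal forebrain (10) and aggressive right basal forebrain (12). The forebrain libraries ID488 and ID490 of tame foxes were not analysed here. The labels name no treatment, batch or unselected control line, so a difference between lines has no outside reference, and they do not say that each library is a separate animal; p-values measure the spread between these libraries. Libraries are named by the identifier in their labels.

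The prefrontal cortex is the part of the neocortex behind the forehead, known for planning, the control of impulses and social behaviour. The basal forebrain lies beneath it and holds cholinergic and GABAergic neurons that project widely to the cortex and take part in arousal, attention and motivation. Tame and aggressive foxes come from long-running selection on the response to people. The files do not pair the dog identifiers with gene symbols, and the fox gene table at hand matched 0 of the 13202. The function, position and sequence of the 3 genes are therefore not described, markers of brain cell types could not be looked up, and levels are compared between libraries and not between genes, because gene lengths were not used here.

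Cortex libraries held between 6.23 and 17.2 M counts (M, 1000000 counts), and forebrain libraries between 6.25 and 13.6 M. The lowest count of any of the 3 genes in a library was 177, for ENSCAFG00000006100 in the forebrain. All deposited values of the 3 genes were whole numbers, and none shared all its values with another gene. Tame cortex libraries ID182, ID186, ID187, ID190 and ID191 stood apart from the other 19 cortex libraries. On the first principal component, which held 78.1% of the variance, these 5 scored 50.9 to 159 and the others -37.7 to -14.1. Their TMM factors ran from 0.748 to 0.993 against 1.01 to 1.08 in the other cortex libraries. Line differences in the cortex are given with and without them.

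In the cortex, ENSCAFG00000001254 was at 453.5 CPM in ID187, 472 in ID191, 398 in ID186, 385 in ID190 and 240.2 in ID182. The other 7 tame libraries ran from 180.7 (ID181) through a median of 249 to 296 CPM (ID189). The 12 aggressive libraries ran from 131 (ID235) through a median of 167 to 235.5 CPM (ID233). All 5 libraries that stand apart and 4 of the other 7 lay above the highest aggressive library, while 3 tame libraries lay within the aggressive range. For 20.6% of all 12705 cortex genes the 5 libraries exceeded the aggressive maximum in the same way. Tame cortex averaged 304 ± 99.5 CPM and aggressive cortex 172 ± 32.4 CPM (SD, n = 12 in both), which is 1.77-fold or 0.82 in log2 fold change (SE 0.15). Without the 5 libraries the tame mean was 242 ± 45.4 CPM (SD, n = 7) and the log2 fold change 0.50 (SE 0.12), or 1.41-fold.

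ENSCAFG00000028566 was at 567 CPM in ID187, 408 in ID191, 353 in ID190, 328 in ID186 and 308 in ID182. The other 7 tame libraries lay close together, from 216 (ID188) through a median of 239.5 to 277 CPM (ID184). The aggressive libraries ran from 118 (ID229) through a median of 177 to 253 CPM (ID234). The 5 libraries were all above the aggressive maximum, 1 of the other 7 was, and a single aggressive library, ID234, exceeded the lowest tame library. Tame cortex averaged 303 ± 102 CPM and aggressive cortex 175 ± 35.6 CPM (SD, n = 12 in both), which is 1.73-fold or 0.79 in log2 fold change (SE 0.15). Without the 5 libraries the tame mean was 238.5 ± 20.2 CPM (SD, n = 7) and the log2 fold change 0.45 (SE 0.10), or 1.36-fold.

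ENSCAFG00000006100 was at 102 CPM in ID187, 97.3 in ID191, 97.0 in ID186, 95.2 in ID190 and 65.7 in ID182. The other 7 tame libraries ran from 50.3 (ID181) through a median of 70.7 to 84.9 CPM (ID189). The aggressive libraries ran from 38.4 (ID229) through a median of 47.4 to 66.9 CPM (ID233). Library ID182 was inside the aggressive range, the other 4 of the 5 were above it, and 4 of the other 7 tame libraries were above it too. Tame cortex averaged 78.4 ± 16.9 CPM and aggressive cortex 50.2 ± 9.05 CPM (SD, n = 12 in both), which is 1.56-fold or 0.64 in log2 fold change (SE 0.12). Without the 5 libraries the tame mean was 69.0 ± 11.5 CPM (SD, n = 7) and the log2 fold change 0.46 (SE 0.11), or 1.38-fold.

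**Figure D1:**
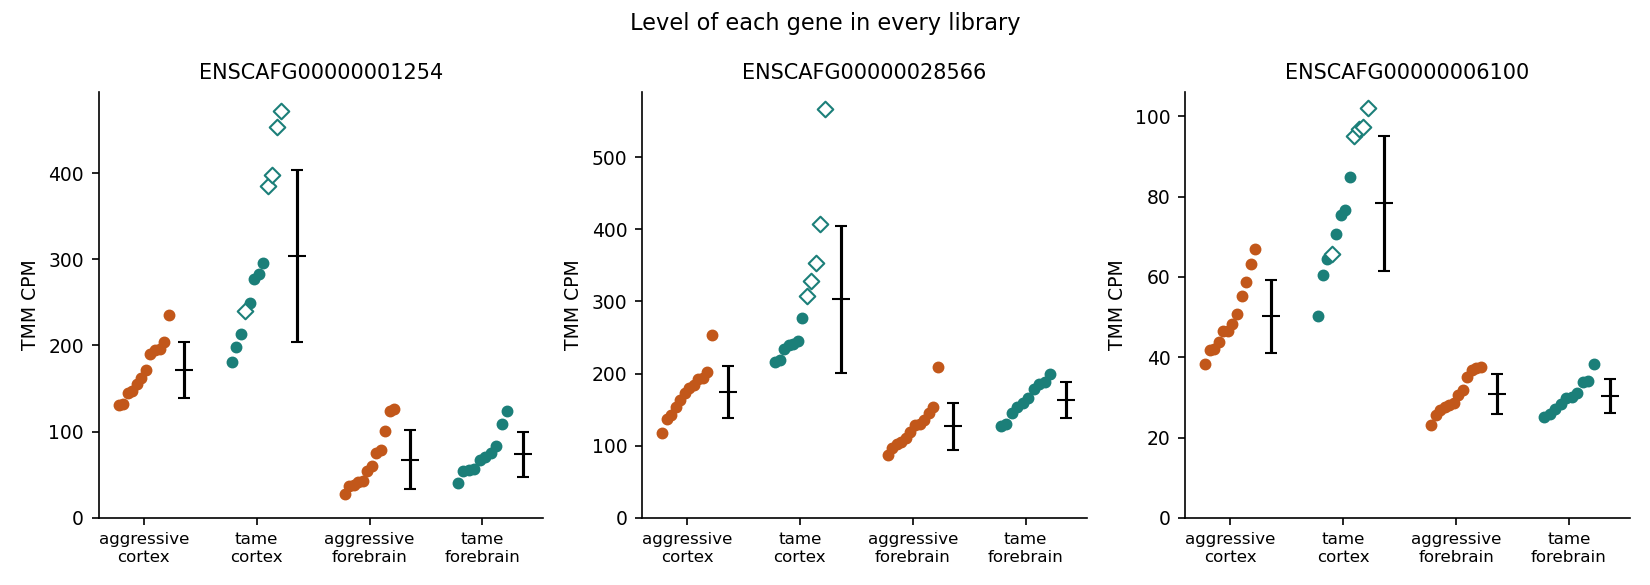
Level of each gene in every library, in TMM CPM on a linear axis from 0, for the 4 groups of line and region. Points are libraries, open diamonds are tame cortex libraries ID182, ID186, ID187, ID190 and ID191, and the black bars are the mean and SD of each group. The open diamonds hold the highest cortex values of each gene, apart from ID182 for ENSCAFG00000001254 and ENSCAFG00000006100, and the forebrain groups overlap for every gene.

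Every tame cortex library exceeded the aggressive median for all 3 genes, a pattern that 1.2% of the 12705 cortex genes had. Since the genes were chosen on this contrast, nothing is read from that share. The 5 libraries all exceeded the aggressive maximum for 2 of the 3 genes. With all 24 libraries the 3 genes were among the 0.338% of cortex genes that edgeR called higher in tame, which is how they came to be listed. Without the 5 libraries 0.11% of 12782 genes passed in that direction and none of the 3 did (0 of 3), with edgeR adjusted p-values of 0.0990 to 0.102. All 3 were among 906 genes with an unadjusted p under 0.05 in that edgeR fit, with values of 0.000311 to 0.000352. How many genes reach such low values is not given by that count. The libraries left are part of the contrast that chose the genes, so nothing is read from these p-values. The median log2 fold change of the 3 genes was 0.79 with all libraries and 0.46 without the 5, beside 0.02 and 0.0018 over all genes tested.

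The direction in the cortex was the same without the 5 libraries, while the call was lost. For ENSCAFG00000001254, ENSCAFG00000028566 and ENSCAFG00000006100 the log2 fold changes were smaller, at 0.50, 0.45 and 0.46. Their SEs were smaller too, at 0.12, 0.10 and 0.11, against 0.15, 0.15 and 0.12 with all libraries. The libraries left are among those that chose the genes, so nothing is read from the kept direction. With all 24 libraries and sample quality weights, limma-voom gave log2 fold changes of 0.64, 0.47 and 0.57 for ENSCAFG00000001254, ENSCAFG00000028566 and ENSCAFG00000006100, and all 3 passed (adjusted p = 0.000376, 0.00965 and 0.000447). Leaving out any single library kept all 3 genes past the threshold in each of 24 fits. The limma-voom and left-out fits reuse the contrast and libraries that chose the genes, so nothing is read from their passing. On deposited totals without TMM factors, tame means were 288 ± 67.8, 286 ± 59.4 and 75.2 ± 12.4 CPM for ENSCAFG00000001254, ENSCAFG00000028566 and ENSCAFG00000006100 (SD, n = 12), and the log2 fold changes were 0.70, 0.67 and 0.54. The member nearest the limit of 50 CPM was ENSCAFG00000006100, with a cortex mean of 64.3 CPM. Just outside it, the next called gene higher in tame cortex was ENSCAFG00000008561, with a mean of 47.2 CPM and a log2 fold change of 0.53, and ENSCAFG00000010596, which is not one of the 3, lay just inside at 51.8 CPM.

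The basal forebrain libraries were not used in choosing the genes by their cortex values, although results of both regions were known when the genes were listed. None of the 3 passed the threshold between the lines there (0 of 3 by edgeR's quasi-likelihood test, against 0.0929% of 12915 genes). Of the 3, 1 had an unadjusted p under 0.05, as did 1490 of all genes tested, and DESeq2 also called 0 of the 3. Their median log2 fold change was 0.13, beside 0.0099 over all genes.

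ENSCAFG00000028566 came closest. In tame forebrain it ran from 127 (ID483) through a median of 162 to 199 CPM (ID485), and in aggressive forebrain from 87.3 (ID529) through a median of 123 to 209 CPM (ID534). The aggressive median lay below all 10 tame libraries, but 0 of them exceeded ID534, and 6 aggressive libraries lay above the lowest tame one. The tame libraries averaged 163 ± 24.5 CPM (SD, n = 10) and the aggressive libraries 127 ± 32.7 CPM (SD, n = 12). The log2 fold change was 0.37 (SE 0.12, 95% interval 0.12 to 0.62, unadjusted p = 0.00564, edgeR adjusted p = 0.290), which does not pass over all genes.

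ENSCAFG00000001254 ran from 40.2 (ID482) through a median of 68.6 to 124 CPM (ID483) in tame forebrain and from 27.7 (ID529) through a median of 57.7 to 126 CPM (ID530) in aggressive forebrain. The 2 ranges cover each other almost whole. The tame libraries averaged 73.6 ± 25.9 CPM (SD, n = 10) and the aggressive libraries 67.3 ± 34.1 CPM (SD, n = 12). On the log2 scale tame exceeded aggressive by 0.13 (SE 0.25, edgeR adjusted p = 0.834). That value was 0.0069 without ID483 and 0.25 without ID530, the extremes over 22 fits that each left out 1 library. The 95% interval of -0.40 to 0.65 includes the cortex value without the 5 libraries as well as 0.

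ENSCAFG00000006100 ran from 25.1 (ID489) through a median of 30.0 to 38.4 CPM (ID483) in tame forebrain and from 23.2 (ID529) through a median of 29.6 to 37.7 CPM (ID530) in aggressive forebrain. The tame libraries averaged 30.4 ± 4.18 CPM (SD, n = 10) and the aggressive libraries 30.8 ± 4.94 CPM (SD, n = 12). The log2 difference was -0.02 (SE 0.091, edgeR adjusted p = 0.927). Its 95% interval of -0.21 to 0.17 does not reach the cortex estimates of 0.64 or 0.46. Those estimates come from the contrast that chose the gene and have errors of their own, so this is a description and not a test between regions.

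**Figure D2:**
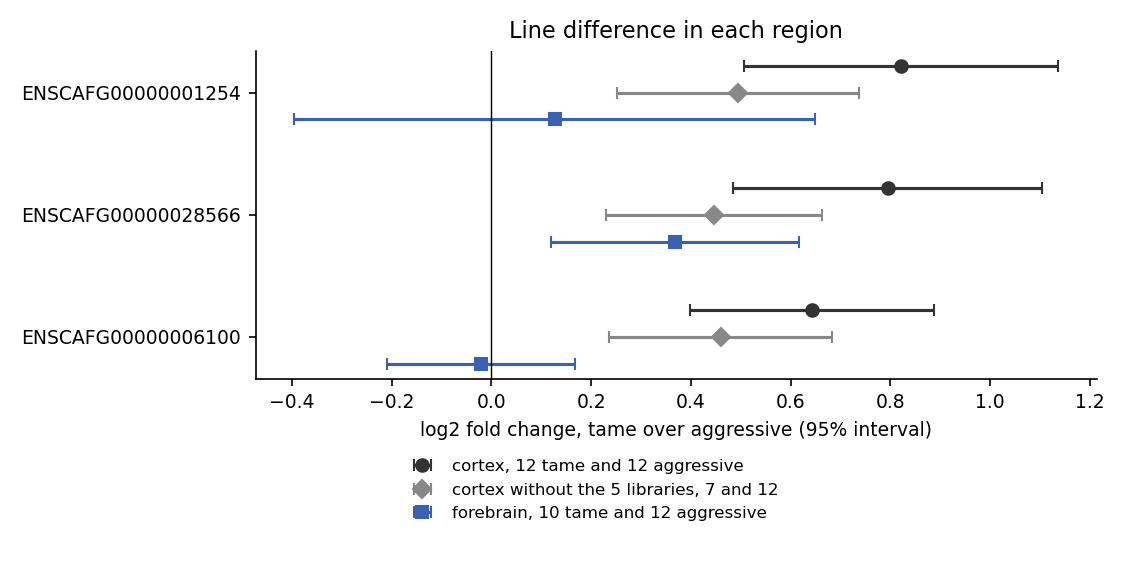
Log2 fold change of tame over aggressive foxes with its 95% interval for each gene, in the cortex with all 24 libraries (circles), in the cortex without 5 tame libraries (diamonds) and in the forebrain (squares). Leaving out the 5 libraries brings the cortex value of ENSCAFG00000028566 to 0.45, close to its forebrain value of 0.37, while ENSCAFG00000006100 stays at 0.46 in the cortex against -0.02 in the forebrain.

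The difference between the 2 line effects was computed in a joint fit of 46 libraries and is a description, because its cortex part chose the genes. The forebrain effect was lower than the cortex effect by 0.68 for ENSCAFG00000001254 (log2 difference -0.68, SE 0.30), by 0.41 for ENSCAFG00000028566 (-0.41, SE 0.20) and by 0.65 for ENSCAFG00000006100 (-0.65, SE 0.15). Without the 5 libraries these differences were -0.36 (SE 0.30), -0.07 (SE 0.17) and -0.47 (SE 0.14). For ENSCAFG00000028566 that value was smaller than its SE, with a 95% interval of -0.41 to 0.27.

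Averaged over the lines, all 3 genes were lower in basal forebrain than in prefrontal cortex, as were 30.2% of the 12695 genes of both tables (edgeR, adjusted p under 0.05). The contrast uses the cortex libraries on which the genes were chosen, with a floor of 50 CPM on the cortex mean, so it is given as a description and nothing is read from that share. ENSCAFG00000001254 was 3.71-fold lower in the forebrain (log2 fold change -1.89, SE 0.15). Every one of 22 forebrain libraries lay below every one of 24 cortex libraries for this gene, which 2.36% of 12563 genes showed. ENSCAFG00000006100 was 2.35-fold lower (log2 fold change -1.23, SE 0.078), with 21 of 22 forebrain libraries below the lowest cortex library. ENSCAFG00000028566 was 1.83-fold lower (log2 fold change -0.87, SE 0.10), with 5 of 22 forebrain libraries below the lowest cortex library.

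The regions were counted in separate tables, so region and table cannot be told apart, and in bulk tissue fewer cells of a type and less RNA per cell cannot be told apart either. Without the 5 libraries the log2 fold changes between regions were -1.69, -0.66 and -1.10 for ENSCAFG00000001254, ENSCAFG00000028566 and ENSCAFG00000006100. Absolute log2 fold changes between regions were smaller than that of ENSCAFG00000001254 for 97.9% of all genes, than that of ENSCAFG00000006100 for 93.2% and than that of ENSCAFG00000028566 for 85.5%.

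The spread between libraries of a line was set against that of genes of at least 50 CPM. In the 19 cortex libraries the SD of log2 CPM within lines was 0.27 for ENSCAFG00000001254, 0.24 for ENSCAFG00000028566 and 0.25 for ENSCAFG00000006100, against a median of 0.13 over those genes, and exceeded 95.6%, 92.8% and 93.8% of 4672 of them. In the forebrain these SDs were 0.63, 0.29 and 0.21, against a median of 0.16. They exceeded 98.1%, 84.5% and 69.3% of the genes of at least 50 CPM there, a level that ENSCAFG00000006100, with a forebrain mean of 30.6 CPM, does not reach itself. ENSCAFG00000001254, with the largest forebrain SD of the 3, also had the widest interval of the forebrain line effect.

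The next question was whether the 3 genes vary together among libraries of one line, a property that their selection did not use. In all, 15 relations were computed on log2 CPM after the mean of each line was subtracted, without the 5 cortex libraries, and p-values were adjusted over these 15. ENSCAFG00000001254 and ENSCAFG00000006100 varied together in both regions. In the cortex Pearson's r was 0.945 and Spearman's rho 0.937 over 19 libraries (permutation test, adjusted p = 7.5e-05 and 0.00015). In the forebrain r was 0.883 and rho 0.834 over 22 libraries (permutation test, adjusted p = 7.5e-05 and 0.00015). Of these 4 adjusted values, 3 rest on the smallest p that 100000 permutations can give, 1e-05. Without the 2 libraries farthest from the median of ENSCAFG00000001254, r was 0.922 in the cortex (without ID233 and ID181) and 0.840 in the forebrain (without ID530 and ID529).

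Libraries high for one of this pair were high for the other. In the aggressive forebrain ID530, ID540 and ID533 held the highest levels of both, at 126, 124 and 101 CPM of ENSCAFG00000001254 and 37.7, 37.4 and 36.9 CPM of ENSCAFG00000006100. Tame library ID483 held the highest level of both in its group. ENSCAFG00000028566 showed no such relation to either gene. Its r with ENSCAFG00000001254 was 0.051 in the cortex and -0.112 in the forebrain, and with ENSCAFG00000006100 it was 0.170 and -0.119 (permutation tests, adjusted p from 0.739 to 0.898). Its rho with ENSCAFG00000001254 was -0.084 and -0.107, and with ENSCAFG00000006100 -0.060 and -0.142 (adjusted p from 0.788 to 0.910). Without the 2 farthest libraries the 4 values of r ran from -0.382 to 0.131.

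**Figure D3:**
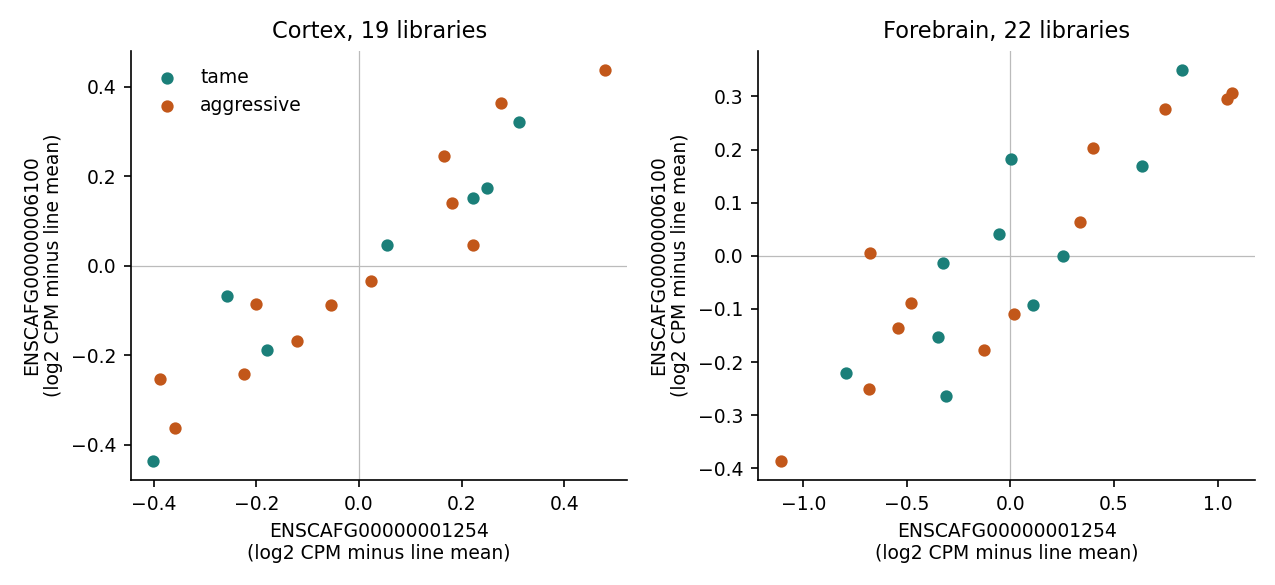
Levels of ENSCAFG00000006100 against ENSCAFG00000001254 in the cortex (19 libraries) and in the forebrain (22 libraries), each as log2 CPM minus the mean of its line, tame libraries in green and aggressive libraries in orange. Points of both lines lie along a rising diagonal in both regions, with r of 0.945 and 0.883.

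Genes whose pattern was most like each of the 3 were looked for among 12607 others over the 41 libraries left when the 5 were set aside, with the mean of each line and region group removed. For both ENSCAFG00000001254 and ENSCAFG00000006100 the most alike identifiers were ENSCAFG00000007338 and ENSCAFG00000025231, with r of 0.917 and 0.825. These identifiers carry equal values in every library and are counted separately in the ranks below. It was at a mean of 184.1 CPM in the cortex and 36.9 CPM in the forebrain, with a log2 fold change between lines of 0.76 in the cortex and 0.14 in the forebrain. ENSCAFG00000001254 itself was at rank 3 for ENSCAFG00000006100 and the latter at rank 10 for the former (r = 0.814). For ENSCAFG00000028566 the most alike genes were ENSCAFG00000032444 (r = 0.725, mean of 3.69 CPM in the cortex) and ENSCAFG00000015939 (r = 0.668, mean of 26.5 CPM in the cortex). These r values were picked as the highest and are a description.

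Levels were then set against an axis that separates the regions, a comparison chosen after seeing the data. A region index was formed for each library as the mean log2 CPM of the 100 genes most above the forebrain in the cortex minus that of the 100 genes most above the cortex in the forebrain, leaving out the 3 genes. These genes were picked on the same libraries. Forebrain libraries had an index from -2.58 (ID529) to -0.54 (ID486), and cortex libraries from 1.50 to 3.15. The index averaged -1.83 ± 0.55 in tame (SD, n = 10) and -1.95 ± 0.60 in aggressive forebrain (SD, n = 12), so the lines overlapped.

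Within the forebrain, ENSCAFG00000001254 was higher in libraries with a more cortex-like index, with r of 0.661 and rho of 0.750 (22 libraries, permutation test, adjusted p = 0.00192 and 0.00065). ENSCAFG00000006100 was too, with r of 0.717 and rho of 0.650 (adjusted p = 0.00045 and 0.00484). Without ID486 and ID533, the libraries farthest from the median index, r was 0.789 and 0.722. All 3 genes are themselves higher in the cortex, like the genes that raise the index. The share of other such genes that follow the index was not computed, so these relations are not read as particular to the 3 genes. ENSCAFG00000028566 showed no relation to the index in the forebrain, with r of -0.026 and rho of 0.023 (permutation test, adjusted p = 0.908 and 0.920), and r of -0.030 without the same 2 libraries. In the 19 cortex libraries r with the index was 0.410, 0.244 and 0.421 for ENSCAFG00000001254, ENSCAFG00000028566 and ENSCAFG00000006100, and rho was 0.411, 0.246 and 0.458. None of these passed (permutation tests, adjusted p from 0.127 to 0.583), and r was 0.409, 0.368 and 0.474 without ID238 and ID185. The share of all genes related to the index there was not computed, and whether the relations differ between the regions was not tested.

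**Figure D4:**
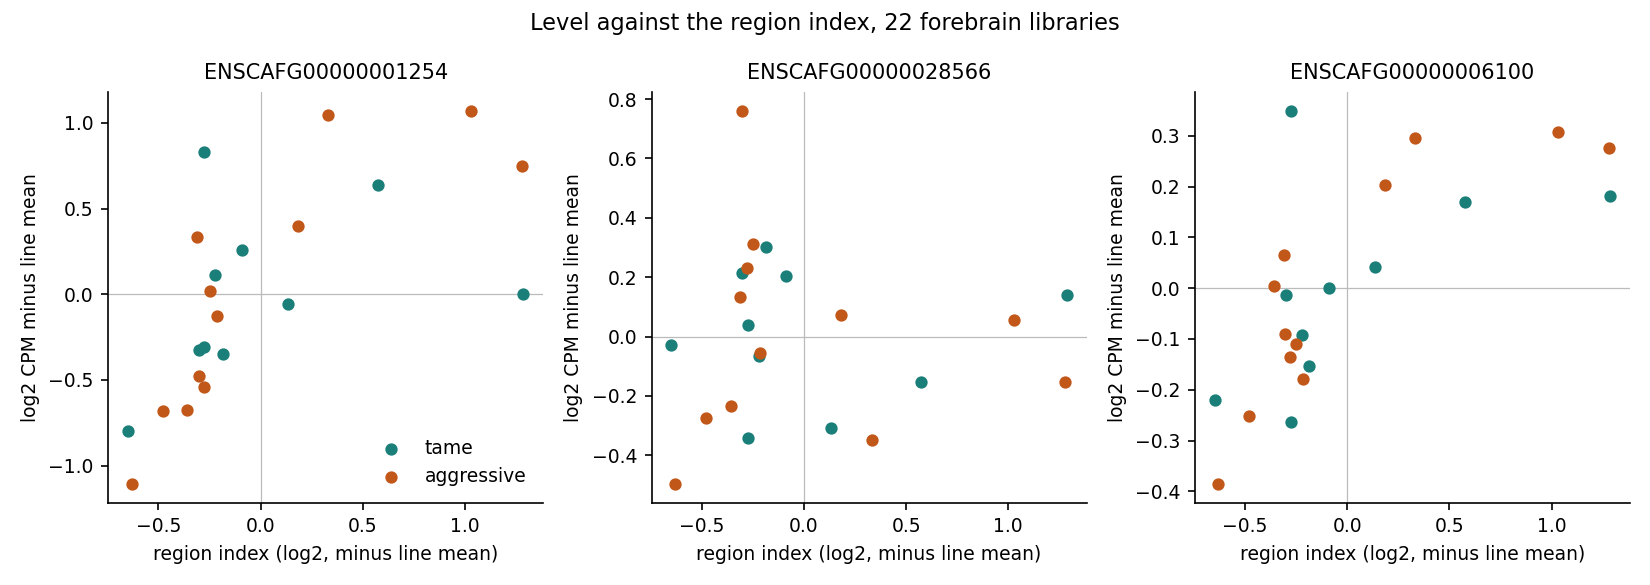
Level of each gene (log2 CPM minus the mean of its line) against the region index (log2, minus the mean of its line) in 22 forebrain libraries, tame in green and aggressive in orange; a higher index is closer to the cortex. ENSCAFG00000001254 and ENSCAFG00000006100 are higher at a higher index, with r of 0.661 and 0.717, and ENSCAFG00000028566 is not, with r of -0.026.

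With the index as a covariate, an alternative chosen after seeing the data, the forebrain line differences were 0.15 (SE 0.20), 0.37 (SE 0.12) and -0.04 (SE 0.069) for ENSCAFG00000001254, ENSCAFG00000028566 and ENSCAFG00000006100. None of the 3 passed (edgeR adjusted p from 0.263 to 0.767), against 12 of 13089 genes. The filter on low counts removed no gene in this fit, while the main forebrain fit tested 12915. In the cortex the 5 libraries that stand apart had an index of 2.30 to 3.15, the other 7 tame libraries 1.82 to 2.36 and the aggressive libraries 1.50 to 2.49. In ID186, ID187, ID190 and ID191 the index and the levels of all 3 genes thus exceeded those of every other cortex library. ID182, with an index of 2.30, lay inside the aggressive range of the index. The part of the index in the cortex line difference was not tested.

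Lastly, cortex and forebrain libraries that share the last 2 digits of their identifier were compared, 16 pairs without the 5 cortex libraries. The labels do not say that such a pair comes from the same fox. For ENSCAFG00000028566 the cortex level followed the forebrain level of the same number, with r of 0.819 and rho of 0.715 (permutation test, adjusted p = 0.00075 and 0.00774). Aggressive libraries ID234 and ID534 were the highest of their groups for this gene, at 253 and 209 CPM, and ID229 and ID529 the lowest, at 118 and 87.3 CPM. Without those 2 pairs r was 0.591 (permutation test, unadjusted p = 0.0268). For ENSCAFG00000001254 r was 0.282 and rho 0.247 (permutation test, adjusted p = 0.5001 and 0.595), and for ENSCAFG00000006100 r was 0.096 and rho 0.053 (adjusted p = 0.832 and 0.910). Without ID233 and ID229 these r values were -0.046 and -0.368. Whether the r of ENSCAFG00000028566 exceeds those of the other 2 genes was not tested. The share of all genes with such an r over these pairs was not computed, so the relation is not read as particular to this gene.

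**Figure D5:**
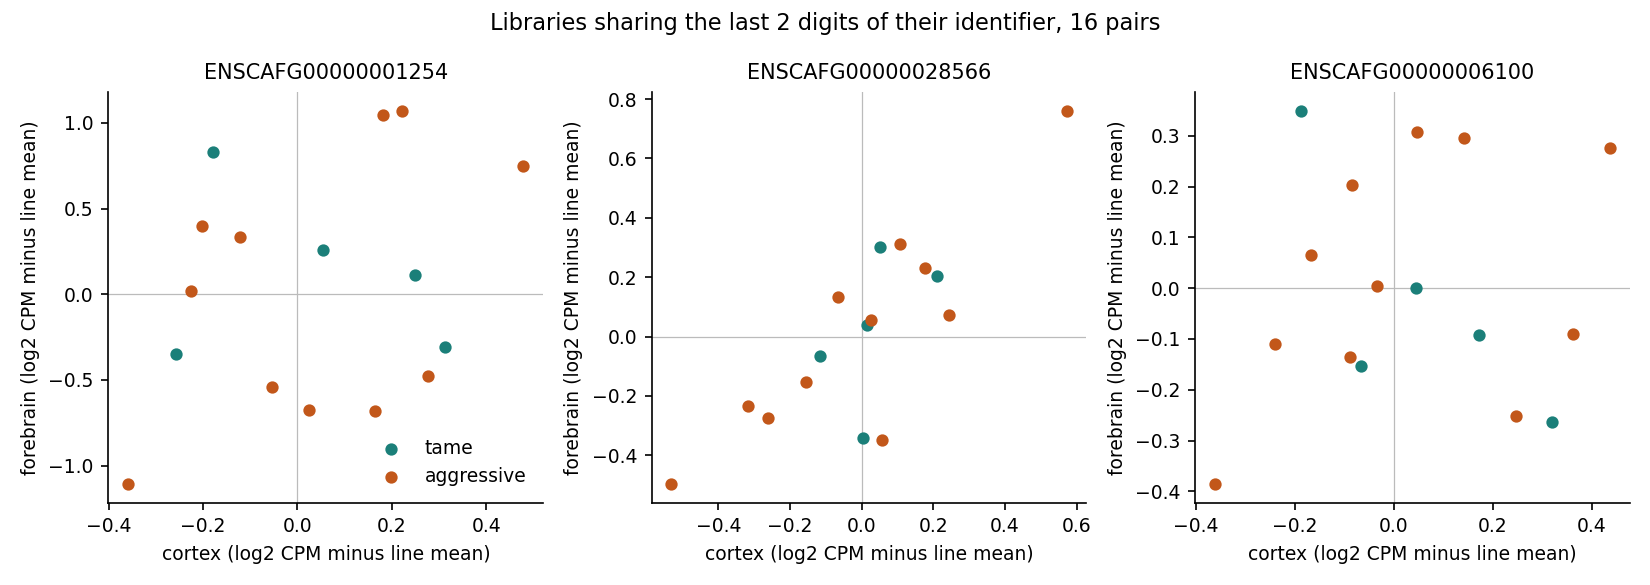
Forebrain against cortex level of each gene (log2 CPM minus the mean of its line) in 16 pairs of libraries that share the last 2 digits of their identifier, tame in green and aggressive in orange. ENSCAFG00000028566 rises along the diagonal with r of 0.819, with the pairs at both ends being ID229 with ID529 and ID234 with ID534, and the other 2 genes scatter, with r of 0.282 and 0.096.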

How the data were processed

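Poly(A) RNA of fox prefrontal cortex and basal forebrain was sequenced on an Illumina HiSeq2000, per the labels. The authors deposited estimated counts per gene, a table for each region, with dog Ensembl identifiers per the file headers. The submitters' processing notes name CASAVA 1.8.2, FastQC, Trimmomatic, BWA, bedtools, edgeR and the dog build canFam3; their roles are not given in the sources used here.

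Counts were rounded. Genes were kept with filterByExpr (minimum count 10) and libraries scaled by TMM. Tame was compared with aggressive in each region with edgeR 4.0.16 (quasi-likelihood F-test, robust; R 4.3.3), and the regions in a joint fit of 46 libraries, with Benjamini-Hochberg adjustment over all genes. SE is the log2 fold change over the root of F. Correlations used log2 CPM with a prior count of 2 and two-sided permutation tests (100000 shuffles). The region index used genes past the threshold between regions with at least 10 CPM in both. The fits were tested on simulated counts. Alternatives used DESeq2 1.42.0, limma-voom with and without sample quality weights (limma 3.58.1), other scalings and left-out libraries.

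The members and lists were chosen with earlier results of these data known. The genes named are the 3 members, the 2 most alike genes of each by Pearson's r, and those nearest the limit of 50 CPM. Preset lists of cell type markers needed gene symbols and were not used here.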

Additional observations from a re-analysis of the deposited data

How the results depend on the processing

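The region differences of all 3 genes kept their direction under all 9 alternatives, and in the forebrain none of the 3 passed under any of 7 alternatives or 22 fits that each left out 1 library. In the cortex all 3 passed under 6 of 7 alternatives, a description only, because this contrast and these libraries chose the genes. Without the 5 cortex libraries the log2 fold changes were 0.50, 0.45 and 0.46 (edgeR adjusted p from 0.0990 to 0.102, against 0.000376 to 0.0195 under the other 6). Without them the gap between the regions' line effects for ENSCAFG00000028566 moved to -0.073. The forebrain value of ENSCAFG00000006100 ran from -0.069 to 0.0075 over the fits that left out 1 library and crossed 0 in 5 of them; those of ENSCAFG00000001254 and ENSCAFG00000028566 ran from 0.0069 to 0.25 and from 0.32 to 0.45.

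The number of genes past the threshold in the cortex was 55 (43 higher, 12 lower), 86 with upper-quartile scaling (73 higher, 13 lower), 163 with limma-voom and sample quality weights (98 higher, 65 lower), 898 with DESeq2 (865 higher, 33 lower), 30 without the 5 libraries (14 higher, 16 lower), 61 on deposited totals (41 higher, 20 lower), and 21 to 141 when 1 library was left out (lowest without ID239, highest without ID181). In the forebrain it was 12 (9 higher, 3 lower), with 54 under DESeq2 (25 higher, 29 lower), 13 with limma-voom and sample quality weights (7 higher, 6 lower) and 8 to 16 when 1 library was left out. Deposited totals moved the median log2 region difference of all genes from 0.04 to 0.23 and the split from 4285 higher and 3829 lower to 6431 and 2456. The cause of these moves was not tested.

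Limma-voom without weights and with a replicate block over 20 pairs of libraries sharing their last 2 identifier digits gave region differences of -1.97, -0.85 and -1.22 and line effect gaps of -0.55, -0.36 and -0.64, against -1.96, -0.85, -1.22 and -0.55, -0.35, -0.64 without the block. Deviations of these pairs over all genes correlated from -0.266 to 0.324, with 14 of 20 over 0.1. These values do not settle whether such libraries come from the same fox. Libraries were paired by shared number for the block, for these correlations and for the comparison of cortex with forebrain levels. The main fits did not use this pairing, and a shared number was not taken to show a shared fox. The block gave 8453 genes between regions against 8411, and 1 gene against 0 for the interaction.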
